A study of Brassica napus with 6 samples.

Results

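A group of 171 Brassica napus genes gave almost no reads in microspore cultures developing into pollen, and was read in each of the cultures treated with heat stress and a histone deacetylase inhibitor. The members were chosen from the deposited counts themselves. A gene identifier was included when the 3 pollen-culture libraries together held at most 3 of its reads and its level was at least 3 CPM (the usual depth-scaled unit, a count divided by its column total) in each of the 3 treated libraries. The 171 identifiers were 0.169% of the 101040 in the table. They were 0.589% of the 29011 identifiers that reached 3 CPM in each treated library, and 0.433% of the 39487 that had at most 3 pollen-culture reads.

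Both groups came from late unicellular microspores of the genotype DH12075, isolated and cultured in the same way, with 3 biological replicates each, collected on day 2. The heat stress plus TSA cultures were held at 33 °C with 0.05 µM trichostatin A (TSA) for 24 h, then washed and moved to 25 °C, and the labels name microspores, pollen and embryogenic cells in them. The pollen cultures were held at 25 °C, and the labels name microspores and pollen; their treatment label reads untreated, while the treatment protocol gives them DMSO, the solvent control for TSA, for the same period. Temperature and TSA changed together, so the values below belong to the combined treatment, and RNA came from whole mixed cultures.

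A microspore is the haploid cell that leaves meiosis and normally divides and matures into a pollen grain. In culture, heat or inhibitors of histone deacetylases can turn part of the microspores of Brassica napus toward haploid embryos, a route used by breeders to make doubled haploid plants. Histone deacetylases remove acetyl groups from histone tails, which generally goes with closed chromatin and low transcription, and TSA blocks these enzymes.

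The genes behind the 171 identifiers are not named here. The table gives identifiers without gene names, and 0 of the 101040 matched the RefSeq gene table of the Da-Ae assembly that was at hand. No function, position, sequence or gene length could therefore be attached to any member, and markers of microspores, pollen or embryogenic cells could not be checked. CPM is not divided by gene length, so an order between identifiers below is an order of reads. In mixed cultures, fewer cells that use a gene and less RNA per cell cannot be told apart.

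Every level that follows was used by the rule, or lies above its limit, and is a description. The column totals were 11758677, 24773444 and 22920440 counts in heat stress plus TSA replicates 1, 2 and 3, and 14714537, 24527873 and 19841078 counts in pollen culture. At these totals 3 CPM is 35.3 to 74.3 reads in a treated library. The lowest count of any member in a treated library was 36 reads, for which counting error alone gives a coefficient of variation (CV) of 16.7%. Over the 3 pollen-culture libraries together, 3 reads are 0.0508 CPM.

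The members were mostly read at a moderate level after treatment, and a few carried a large part of the reads. The mean over the 3 treated libraries had a median of 12.9 CPM, with quartiles of 7.09 and 28.0 CPM, and ran from 3.73 to 512 CPM. The mean was at least 10 CPM in 108 members, at least 30 CPM in 41 and at least 100 CPM in 9. By mean CPM, 36.8% of members lay under 10, 39.2% from 10 to 30, 18.7% from 30 to 100 and 5.26% at 100 or above. The other identifiers at the treated limit, with more than 3 pollen-culture reads, had 33.3%, 41.9%, 19.6% and 5.16% in these classes. These levels were thus not particular to the members. At least 10 CPM in every treated library was seen in 57 members, at least 30 CPM in 16 and at least 100 CPM in 1. The 20 members with the highest mean CPM made up at least 50% of the summed mean CPM, and 101 made up at least 90%. The 85 members with the lowest mean CPM together held 13.6%. This concentration was not set against that of other identifiers.

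Treated replicate 1 was lower than its partners at every point of this distribution. The median member stood at 6.89 CPM in replicate 1 (quartiles 4.21 and 13.8), 16.1 CPM in replicate 2 (8.40 and 34.0) and 13.7 CPM in replicate 3 (7.85 and 38.2). At least 30 CPM was reached by 16, 50 and 52 members in replicates 1 to 3. The other 28840 identifiers that met the treated limit, but had more than 3 pollen-culture reads, had medians of 15.6, 14.6 and 13.0 CPM in the same libraries. The members thus sat near the level of the other genes in replicates 2 and 3 and below it in replicate 1.

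**Figure D1:**
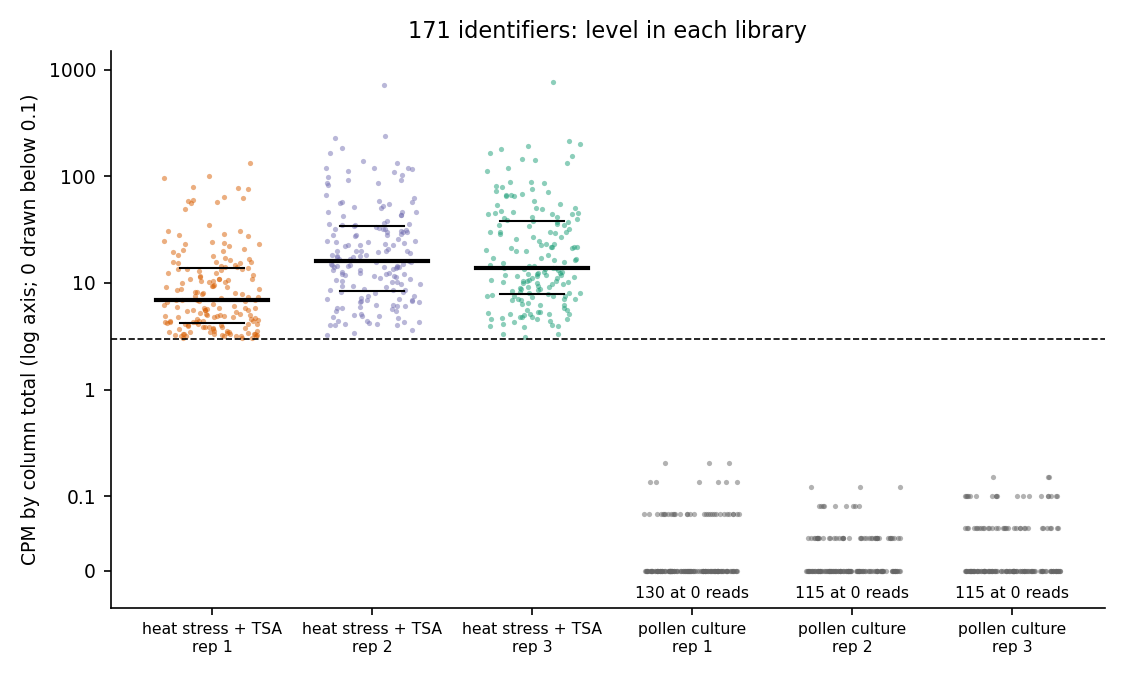
CPM of the 171 members (points) in each of the 6 libraries on a log axis, with identifiers at 0 reads drawn on a row below 0.1; thick and thin bars mark the median and quartiles, and the dashed line is the limit of 3 CPM. The medians of heat stress plus TSA replicates 1, 2 and 3 are 6.89, 16.1 and 13.7 CPM, and no member exceeds 3 reads in a pollen-culture library.

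The members took a small share of all reads, and that share was lowest in treated replicate 1. They held 0.238%, 0.600% and 0.604% of the counts in the 3 heat stress plus TSA libraries, by replicate number, with a mean of 0.481% ± 0.210 (SD, n = 3). In the pollen-culture libraries they held 0.000360%, 0.000289% and 0.000408% (mean 0.000353% ± 0.000060, SD, n = 3). The 95% Wilson intervals of the treated shares were 0.236 to 0.241%, 0.596 to 0.603% and 0.601 to 0.607%. They treat the reads of a library as independent draws and leave out differences between cultures. Reads carry no molecular identifiers, so even the counting error may be understated. Totals were also scaled by the trimmed mean of M values (TMM), which sets aside genes with extreme ratios between libraries or extreme abundance. With TMM-scaled totals the shares were 0.201%, 0.583% and 0.650%.

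Those reads were concentrated to a like degree in each treated library. The 10 members with the most reads in a library took 33.7%, 35.9% and 37.9% of the member reads in heat stress plus TSA replicates 1 to 3. Without the most abundant member the shares of all counts were 0.232%, 0.529% and 0.528%, so replicate 1 stayed lowest. Most of the reads that treated libraries gave to near-silent genes fell on these members. All 39487 identifiers with at most 3 pollen-culture reads took 0.446%, 1.01% and 1.03% of the counts in treated replicates 1 to 3. The 171 members held 53.5%, 59.3% and 58.8% of those counts. The rule kept the near-silent identifiers that reached its limit in every treated library, so a large share follows from the choice.

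The members gave 314923 reads in the treated libraries together and 205 in the pollen-culture libraries. Of the 171 members, 61 had no pollen-culture read, 45 had 1, 35 had 2 and 30 had 3. The reads were spread over the libraries, with 53, 71 and 81 in pollen-culture replicates 1 to 3, or a summed level of 3.60, 2.89 and 4.08 CPM for the whole set. Reads came from 1 pollen-culture library in 70 members, from 2 in 37 and from all 3 in 3.

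The folds behind these counts were large by construction, since the limits of the rule alone set the groups 59.1-fold apart. For the 61 members without a pollen-culture read, the treated mean was divided by the level of 3 reads over the pollen-culture group. The result, taken as a lower bound on the fold, ran from 79.7 to 2381, with a median of 206. For the 110 members with 1 to 3 reads, the ratio of scaled reads ran from 72.9 to 11853, with a median of 572. The ratio of 72.9 has a 95% exact (Clopper-Pearson) counting interval of 24.6 to 356, and the interval stayed above 100 in 69 of the 110. These intervals pool the reads of each group and do not cover differences between cultures. Members without a pollen-culture read were not more abundant after treatment than those with reads. Their median treated mean was 10.5 CPM, against 13.9 CPM for members with 1 to 3 reads, and 8 of 61 against 33 of 110 reached 30 CPM.

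All 171 members passed the low-count filter and all 171 were called higher after treatment by edgeR's quasi-likelihood test at an adjusted p of 0.05 (Benjamini-Hochberg). Over all 49871 identifiers tested, 6.66% were called higher. The rule used this contrast, so the count says nothing further about the members. DESeq2 also called 171 of 171, against 8.54% of the identifiers for which it gave an adjusted p.

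The member with the highest mean CPM was GSBRNA2T00106935001. After heat stress plus TSA it stood at 63.8, 709 and 762 CPM for replicates 1 to 3, with a mean of 512 ± 389 CPM (SD, n = 3), from 750, 17569 and 17461 reads. It had 0, 3 and 0 reads in pollen-culture replicates 1 to 3. The ratio of scaled reads was 11853, with a 95% exact counting interval of 4055 to 57477. That interval pools the reads of the 3 treated libraries and leaves out the spread between them. Replicates 2 and 3 were close to each other and replicate 1 was 11.9-fold below the highest. This identifier alone made up 10.6% of the summed mean CPM of the 171, and by mean treated CPM it ranked 112 among all identifiers.

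The steadiest of the members averaging at least 10 CPM was GSBRNA2T00002952001. After heat stress plus TSA it stood at 27.3, 31.8 and 30.02 CPM for replicates 1 to 3, with a mean of 29.7 ± 2.29 CPM (SD, n = 3), from 321, 789 and 688 reads. It had 1, 0 and 2 reads in pollen-culture replicates 1 to 3, a ratio of 596 with a counting interval of 203 to 2891. Its highest treated library was 1.17 times its lowest. Both named identifiers had 3 pollen-culture reads, the limit of the rule.

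Other members with a high mean CPM, picked after their values were seen, show both kinds of pattern. The second by mean CPM stood at 132, 237 and 192 CPM in treated replicates 1 to 3, and was the one member at 100 CPM or more in each. The seventh stood at 95.8, 102 and 120 CPM, and the tenth at 99.9, 117 and 81.5 CPM. These 3 were high in every treated library. The ninth stood at 15.2, 227 and 65.3 CPM, and the member with the widest range of all stood at 5.02, 56.8 and 180 CPM, a ratio of 35.9. In these 2, replicate 1 was far below and replicates 2 and 3 also differed, by 3.47-fold and 3.17-fold.

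**Figure D2:**
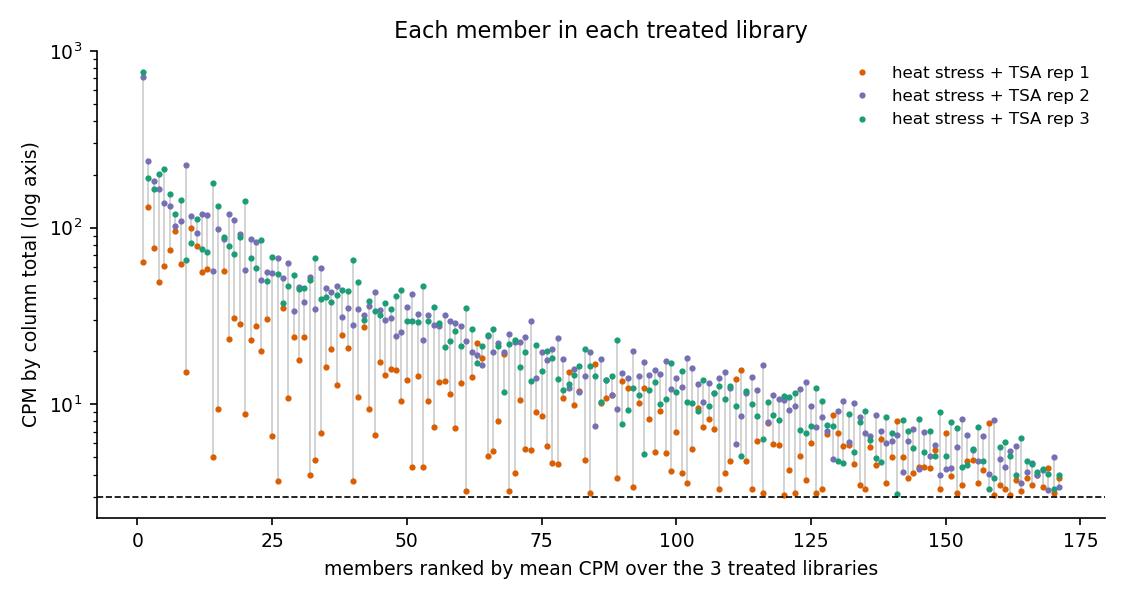
CPM (log axis) of each of the 171 members in the 3 heat stress plus TSA libraries, ranked by mean CPM; grey lines join the lowest and highest library of a member and the dashed line is the limit of 3 CPM. Replicate 1 is the lowest point in 143 of 171 members, and the most abundant member stands at 63.8, 709 and 762 CPM.

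The members were less even over the treated libraries than the pooled other genes at the same treated limit, though not than those with slightly more pollen-culture reads. The ratio of the highest to the lowest treated library, which the rule did not use except through the limit of 3 CPM, had a median of 2.32 among members (quartiles 1.66 and 3.78). It was 1.67 among the other 28840 identifiers (1.36 and 2.17), which met the same limit. The 3 treated libraries were within 2-fold in 67 members (39.2%) and in 68.4% of the others. They differed over 5-fold in 26 members (15.2%) and in 2.12% of the others. The median CV was 40.7% among members and 26.5% among the others. Within the others, the median ratio was 2.41 for the 94 identifiers with 4 to 10 pollen-culture reads, 2.01 for 202 with 11 to 30 and 1.79 for 631 with 31 to 100, so a wide spread was not particular to the members. Identifiers are not replicates, so no test was made between these sets.

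This difference in spread was present at each level of expression and was smallest among the lowest members. Among identifiers averaging under 10 CPM, the median ratio was 1.92 in 63 members and 1.67 in the others. From 10 to 30 CPM it was 2.58 in 67 members and 1.67 in the others, and from 30 to 100 CPM it was 3.42 in 32 members and 1.63 in the others. At 100 CPM and above it was 2.38 in 9 members and 1.79 in the others. The limit of 3 CPM leaves little room for a low library in the lowest class.

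The spread lay mainly between treated replicate 1 and the other two. Replicate 1 was the lowest treated library in 143 of 171 members (83.6%), replicate 2 in 13 and replicate 3 in 15. Among the others, replicate 1 was lowest in 32.2%, replicate 2 in 20.3% and replicate 3 in 47.6%. Replicate 1 was the highest library in 10 members (5.85%) and in 51.7% of the others. All 26 members whose libraries differed over 5-fold had their lowest value in replicate 1. No matching count is given here for the others over 5-fold, so this is not shown to be particular to the members. The 28 members that were not lowest in replicate 1 were more even, with a median ratio of 1.56 and a largest ratio of 3.31, and had a lower median mean of 8.38 CPM, against 14.5 CPM for the 143.

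**Figure D3:**
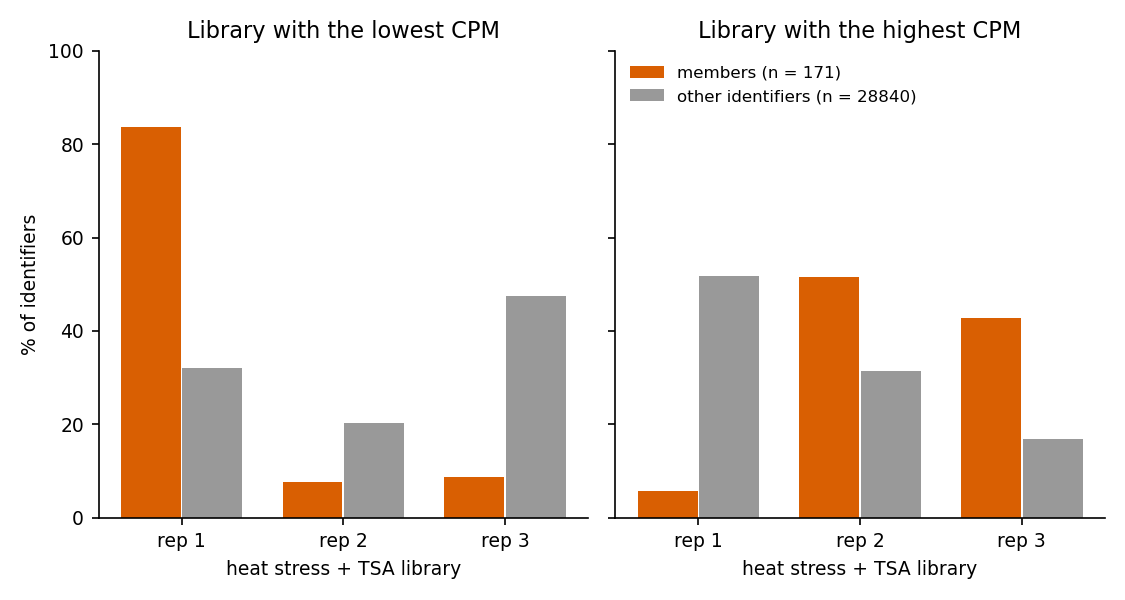
Percentage of identifiers whose lowest (left) or highest (right) CPM fell in each heat stress plus TSA replicate, for the 171 members and for the 28840 other identifiers at 3 CPM or more in each treated library. Replicate 1 is lowest in 83.6% of members and 32.2% of the others, and highest in 5.85% and 51.7%.

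Replicates 2 and 3 were close to each other in the members. Their median ratio, larger over smaller, was 1.31, and 158 members (92.4%) were within 2-fold. Replicates 1 and 2 had a median ratio of 2.03 and were within 2-fold in 84 members. Replicates 1 and 3 had a median ratio of 2.004 and were within 2-fold in 85. Across the 171 members, Pearson's r of log2 CPM was 0.926 between replicates 2 and 3, 0.738 between replicates 1 and 2 and 0.698 between replicates 1 and 3. Across the other 28840 identifiers it was 0.955, 0.826 and 0.818 for the same pairs. The points of each r share a pair of libraries and are cut off at 3 CPM, so these values only describe the libraries.

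Relative to the mean of replicates 2 and 3, replicate 1 had a median log2 ratio of -0.94 in the members (quartiles -1.77 and -0.41) and 0.18 in the others (-0.35 and 0.68). With TMM-scaled totals the medians were -1.22 and -0.10, so the sign for the others depends on the scaling. Replicate 1 had the smallest total of the treated libraries. With every library thinned to 11758677 counts it was lowest in 146 of the 171 members (85.4%) and in 32.01% of the others. With TMM-scaled totals it was lowest in 154 members (90.1%) and in 46.9% of the others. The pollen-culture replicate 1 library also stood apart from its partners, with a chi-square of 47.2 and 49.5 per degree of freedom against them, compared with 10.2 between pollen-culture replicates 2 and 3. The corresponding values for treated replicate 1 were 63.2 and 77.1, compared with 28.7 between treated replicates 2 and 3. The labels name no batch, and the part of a batch, or of the mix of cells, in the low level of replicate 1 was not tested.

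The low level in treated replicate 1 was shared with genes just past the limit of pollen-culture reads and was smaller or absent in the classes above 10 reads. Among identifiers at 3 CPM or more in each treated library, the median log2 ratio of replicate 1 to the mean of replicates 2 and 3 was -0.80 for the 61 without a pollen-culture read and -0.997 for the 110 with 1 to 3. It was -0.98 for 94 identifiers with 4 to 10 reads, -0.61 for 202 with 11 to 30, -0.20 for 631 with 31 to 100, 0.27 for 15867 with 101 to 1000 and 0.09 for 12046 with more. Replicate 1 was the lowest library in 80.3%, 85.5%, 80.9%, 66.8%, 47.2%, 26.9% and 37.4% of these classes. With TMM-scaled totals the 2 classes with the most reads had medians of -0.01 and -0.19, so their sign depends on the scaling, while those of the 5 lower classes were negative under both. Read by read, the median log2 ratio by column totals was -0.80, -0.97, -0.86 and -1.44 for members with 0, 1, 2 and 3 pollen-culture reads. It was -1.12 for 22 identifiers with 4 reads and -0.51 for 9 with 5, so the values did not follow the number of reads in order within this low range.

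**Figure D4:**
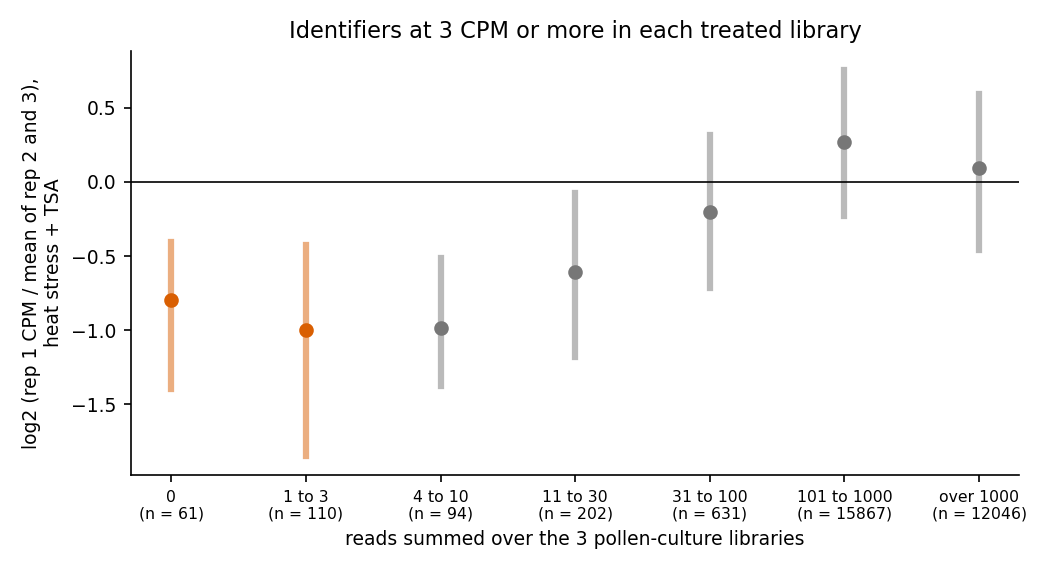
Median (points) and quartiles (bars) of the log2 ratio of heat stress plus TSA replicate 1 to the mean of replicates 2 and 3, by column-total CPM, for identifiers at 3 CPM or more in each treated library, grouped by their reads over the 3 pollen-culture libraries; the members are the 2 orange classes. The median is -0.80 and -0.997 in the members' classes, -0.98 at 4 to 10 reads and 0.27 at 101 to 1000 reads.

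Most near-silent genes that missed the rule in a single treated library missed it in replicate 1. Of the 39487 identifiers with at most 3 pollen-culture reads, 21526 had no read in any of the 6 libraries and 14354 had a read in a treated library. At least 3 CPM was reached in all 3 treated libraries by the 171 members, in 2 by 192 identifiers and in 1 by 173. Of the 192, 182 fell short in replicate 1, 5 in replicate 2 and 5 in replicate 3. Identifiers not near-silent in the pollen-culture libraries of the other 2 replicate numbers also missed the limit most often in replicate 1. Of those at 3 CPM or more in the other 2 treated libraries, 93.1%, 98.3% and 95.3% reached it in replicates 1, 2 and 3. Those 182 had a median of 1.36 CPM in replicate 1, against 5.71 and 5.87 CPM in replicates 2 and 3, and 3 of them had no read in replicate 1. Without treated replicate 1, 353 identifiers met the rule, while 176 did without replicate 2 and 176 without replicate 3.

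The edge of the rule falls within a continuous range of values. The 3 members nearest to the limit stood at 3.06 CPM in treated replicate 1, and the 3 nearest identifiers outside it at 2.98 CPM, also in replicate 1. Of the near-silent identifiers, 28 had their lowest treated library from 3 to under 3.5 CPM and 32 from 2.5 to under 3 CPM. On the side of pollen culture, 30 members had 3 reads, and 22 identifiers that met the treated limit had 4.

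To read the pattern in libraries that took no part in the choice, the same limits were applied to 2 replicate numbers of both groups and the remaining pair was then examined. With replicate 1 left out, 448 identifiers were chosen, and 218 of them (48.7%) reached 3 CPM in treated replicate 1. With replicate 2 left out, 203 of 208 (97.6%) reached it in treated replicate 2, and with replicate 3 left out, 217 of 224 (96.9%) in treated replicate 3. Among identifiers that met the treated limit in the same 2 libraries without being near-silent, the shares were 93.1%, 98.3% and 95.3%. The share was lowest for genes picked from replicates 2 and 3 and read in replicate 1. A left-out pair has 1 library a group, so no test was made.

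The genes picked from replicates 2 and 3 were nevertheless read in treated replicate 1. Their median there was 2.89 CPM, against 8.20 CPM for the mean of the choosing libraries, and 364 of 448 had at least 1 CPM, while 4 had no read. The compared identifiers had a median of 14.2 CPM in treated replicate 1 and 12.9 CPM in the choosing libraries. The treated library stood above the pollen-culture library of the same number in 443 of 448 (98.9%) for replicate 1. It did so in 208 of 208 for replicate 2 and 224 of 224 for replicate 3. A shared number is not known to mean matched cultures. Among the compared identifiers, those shares were 64.4%, 60.1% and 41.1%.

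Silence in the left-out pollen-culture library held for most of these genes too. At most 3 reads were found there in 391 of 448 (87.3%), 200 of 208 (96.2%) and 202 of 224 (90.2%) with replicates 1, 2 and 3 left out. Over all identifiers that were near-silent in the other 2 pollen-culture libraries, treated or not, the shares were 96.7%, 98.2% and 96.2%, which includes the many without a read anywhere. Both limits were met in the left-out pair by 190 (42.4%), 195 (93.8%) and 196 (87.5%). More than 3 reads were found in the left-out pollen-culture library in 57 of 448, 8 of 208 and 22 of 224, and the highest count there was 31, 9 and 37 reads.

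**Figure D5:**
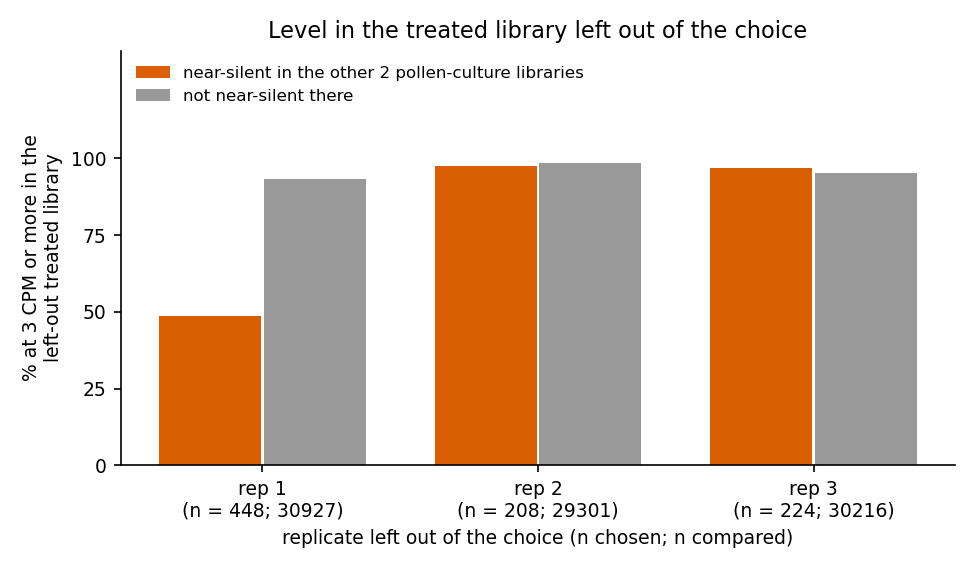
Percentage of identifiers at 3 CPM or more in the heat stress plus TSA library left out of the choice, for those near-silent in the 2 pollen-culture libraries used (orange) and those that were not (grey), both at 3 CPM or more in the other 2 treated libraries. Orange bars stand at 48.7%, 97.6% and 96.9% for replicates 1, 2 and 3, and grey bars at 93.1%, 98.3% and 95.3%.

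The reverse pattern was also counted. The 171 members were 0.589% of the 29011 identifiers that reached 3 CPM in each treated library. A sum of at most 3 treated reads with at least 3 CPM in each pollen-culture library was found in 48 identifiers, which were 0.173% of the 27801 that reached 3 CPM in each pollen-culture library. The group totals, 59452561 counts in the treated libraries and 59083488 in pollen culture, were close, so 3 reads set nearly the same level on both sides. The difference between the numbers was not tested.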

How the data were processed

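The deposited file is a table of whole-number read counts per gene identifier, 1 column per library, without normalization. Per the submitters' processing notes, which give no versions, TopHat2 (a spliced aligner) and HTSeq (a counter of reads per gene) were used. For genome build, annotation, strand setting and multiply mapped reads, the sources used here give nothing. Brassica napus carries closely related A and C subgenomes, and how reads that fit more than 1 close copy were counted is unknown, which makes single identifiers uncertain. Columns were matched to samples by their descriptions and grouped by title.

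The members, limits and sets compared were chosen with earlier results of these data known, so the values describe the group. CPM was computed from the deposited counts by column total, in Python 3.11.15. Across all identifiers, edgeR 4.0.16 in R 4.3.3 was fitted with group alone, TMM scaling and filterByExpr (minimum count 10), with Benjamini-Hochberg adjustment over the 49871 tested. The fit was also run on simulated counts, with smaller changes than those of the members, so that run does not cover them. DESeq2 1.42.0 was an alternative. The 2 identifiers named were the member with the highest mean treated CPM and the one with the smallest ratio of highest to lowest treated library among members averaging at least 10 CPM. Library pairs of a group differed by a chi-square statistic of at least 10.2 per degree of freedom over identifiers with 20 or more reads, so none repeats another. Alternatives were other limits, scalings, filters, thinning to 11758677 counts and leaving out each library.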

Additional observations from a re-analysis of the deposited data

How the results depend on the processing

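The number of members depended on the limits, by construction. It was 102 with at least 5 CPM, 61 with no pollen-culture read allowed and 265 with at most 10 reads, against 171. It stayed within 1.5 times of 171 with at least 2 CPM (248), TMM-scaled totals (149) and equal totals (205). The mean share of treated counts was 0.101% with no pollen-culture read and 0.698% with at most 10 reads, and the median level was 21.7 CPM with at least 5 CPM. Leaving out a library gave 176 to 353 members, a share of 0.421 to 0.750% and a median level of 8.41 to 12.0 CPM. The highest number and share and the lowest level came without heat stress plus TSA replicate 1. The median ratio of highest to lowest treated library was 1.31, 1.99 and 1.97 without treated replicates 1, 2 and 3. Those ratios span 2 libraries, so they are lower by construction than ratios over 3. With a pollen-culture library left out, the ratio over 3 treated libraries was 2.30 to 2.35. Treated replicate 1 was the lowest treated library in 80.3 to 87.2% of the members chosen under the 6 other limits, scalings and totals. The mean share of genes that met both limits in a left-out pair, 74.6%, was 56.9 to 74.5% under these.

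Over all identifiers, calls of higher after treatment numbered 6520 with replicates 2 and 3 alone, 5195 by DESeq2 on all identifiers with a read, and 781 to 4307 when a library was left out, against 3320. Of the 171 members, 162 to 171 were called when a library was left out, and 171 under each other setting. The replicate numbers were not taken as pairs in the main fit. Same-numbered deviations correlated at 0.50, 0.42 and 0.02. Without different-numbered values beside them, these do not settle whether the numbers are pairs. With the replicate number as a block, 3785 identifiers and 171 members were called higher. Column totals in place of TMM put the median log2 fold change, over the whole tested set, at 0.12, against -0.01 with TMM. Apart from the limits and the libraries left out, the cause of these differences was not tested. Depth limits the rule on the side of pollen culture, where 1 read is 0.0408 to 0.0680 CPM.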
